A study of Mus musculus with 8 samples.

Results

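The genes described here are 10 regulators and effectors of epithelial-mesenchymal transition (EMT): the transcription factor genes *Zeb1*, *Zeb2*, *Snai1*, *Snai2*, *Twist1* and *Twist2*, the cadherin genes *Cdh1*, *Cdh2* and *Cdh3*, and the vimentin gene *Vim*. They were taken by name, in a choice made with earlier results of these data known. All 10 were found among the 55414 genes of the table. Of the 10, 4 passed the filter for testing, 4 were above 0 in some library but below the filter, and 2 were listed at 0 in every library.

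RNA-seq was performed on cultured B16F10 cells, a mouse melanoma line, with 2 libraries in each of 4 groups kept for 24 h in the stated oxygen. WT cells and *Ppif* knockout cells (CypD KO) were kept at 21% O2. Control cells, a stable line carrying pcDNA, and a stable line overexpressing *Ppif* (CypD OE) were kept at 1% O2. *Ppif* encodes cyclophilin D (CypD), a mitochondrial protein that promotes opening of the permeability transition pore. The CypD KO cells were CRISPR/Cas9 clones selected with puromycin, and the pcDNA lines were clones selected with G418; how many clones each line came from is not stated in the sources used here. Control and WT cells thus differed in vector and selection as well as in oxygen, and these cannot be told apart, which holds for CypD OE against WT too. CypD KO against WT compares selected clones with cells for which no selection is stated. Knockout, clone and selection cannot be told apart there. CypD OE and Control were separately selected lines, so overexpression and clone cannot be told apart. Nothing in the labels says whether the 2 libraries of a group came from separate cultures, so the tests measure the spread between these libraries, which may be technical.

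EMT is a program in which epithelial cells loosen their junctions and gain migratory, mesenchymal features. SNAI, ZEB and TWIST proteins bind E-box sequences; SNAI and ZEB proteins repress *Cdh1*, which encodes the junction protein E-cadherin, and the program often brings a switch to N-cadherin, encoded by *Cdh2*, and to vimentin filaments. Melanocytes come from the neural crest and are not epithelial: they commonly express *Zeb2* and *Snai2* as lineage factors, and in melanoma a shift from these to ZEB1 and TWIST1 has been described as a form of EMT-like change.

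Values are TPM, the relative abundance of a gene's transcripts per length, as the authors deposited them, so levels can be set beside each other between genes. Fold changes are on the log2(TPM + 1) scale, which understates the change of low genes, and were tested with limma and Benjamini-Hochberg adjustment over 13526 genes, those that reached 1 TPM in 2 or more libraries. With 2 libraries a group, the smallest p of an exact two-sided permutation test is 0.333, and the limma values instead borrow the spread from all groups and genes. The steps between low values put the worth of 1 fragment at 0.082 to 0.0975 TPM for a gene with an effective length of 1 kb. Libraries of the same group correlated at 0.983 to 0.985 over the genes tested, which do not stand in for replicates. Melanocyte lineage genes summed to 16670 TPM or more in every library, and 14 or 15 of the 16 were at 1 TPM or more in both libraries of each group. The targeted gene *Ppif* measured 50.7 and 50.0 TPM in WT, 10.4 and 12.1 TPM in CypD KO, 44.6 and 42.3 TPM in Control, and 50.3 and 49.3 TPM in CypD OE. Its rise over Control was not past the threshold (log2 fold change 0.19, limma adjusted p = 0.0794), so these are called the libraries labelled CypD OE, and directions drawn from them rest on that label.

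Among the 10 genes, *Snai2*, *Cdh2* and *Vim* rose in CypD KO over WT cells, *Snai2* about 4.51-fold, *Vim* 2.09-fold and *Cdh2* 1.55-fold in TPM. *Snai2* and, by a small margin, *Vim* also rose in the libraries labelled CypD OE over Control. *Zeb2* was the most abundant of the 6 factor genes in every library, while *Twist1* and *Twist2* were listed at 0 throughout and *Snai1*, *Zeb1*, *Cdh1* and *Cdh3* were below 1 TPM throughout.

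**Figure D1:**
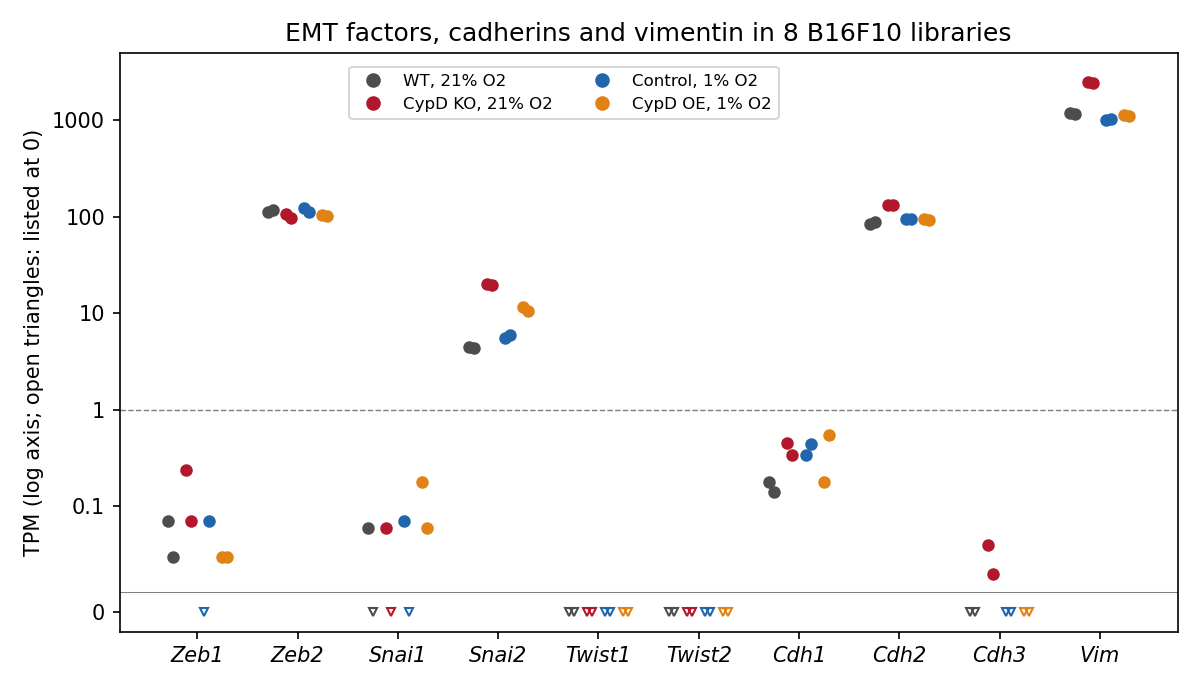
TPM of the 10 genes (log axis) in the 8 libraries, coloured by group; open triangles under the grey line stand for values listed at 0, and the dashed line marks 1 TPM. *Zeb2*, *Snai2*, *Cdh2* and *Vim* lie above 1 TPM in every library, and the other 6 genes lie below it in every library.

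*Zeb2* (ENSMUSG00000026872; GRCm39 chromosome 2, 44873644 to 45007464, minus strand) encodes a zinc finger and homeodomain repressor. It was at 113 and 118 TPM in WT, 108 and 98.4 TPM in CypD KO, 123 and 113 TPM in Control, and 105 and 101 TPM in CypD OE. The highest library was 1.25 times the lowest, the narrowest range of the 4 tested members. The group means of CypD KO and CypD OE were slightly below those of WT and Control. No comparison passed the threshold: the log2 fold change was -0.16 for CypD KO minus WT (95% interval -0.31 to -0.01, limma adjusted p = 0.0734) and -0.19 for CypD OE minus Control (-0.34 to -0.04, limma adjusted p = 0.0521). These calls lie close to the threshold and depend on the settings. After median-of-ratios rescaling the values were -0.27 (limma adjusted p = 0.0101) and -0.20 (limma adjusted p = 0.0462). CypD OE minus Control was also called with a filter of 5 TPM (limma adjusted p = 0.0436) and with a replicate block (limma adjusted p = 0.0494). For Control minus WT the log2 fold change was 0.03 (limma adjusted p = 0.810), and for CypD OE minus WT -0.17 (limma adjusted p = 0.0963). An antisense gene, *Zeb2os*, overlaps *Zeb2* and was at 2.03 to 4.05 TPM; whether counting used strand is not stated, so reads of the pair may not be fully separated.

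*Snai2* (ENSMUSG00000022676; chromosome 16, 14523425 to 14527252, plus strand) encodes SLUG, a zinc finger repressor of the SNAI family that neural crest cells and melanocytes use. Its level was 4.44 and 4.37 TPM in WT and 20.2 and 19.6 TPM in CypD KO. At 1% O2 it was 5.50 and 5.99 TPM in Control and 11.6 and 10.7 TPM in CypD OE. From high to low, the order of the group means was CypD KO, CypD OE, Control, WT. The log2 fold change was 1.95 for CypD KO minus WT (standard error 0.09, limma adjusted p = 9.49e-06) and 0.85 for CypD OE minus Control (standard error 0.09, limma adjusted p = 0.000506). It was 1.17 for CypD OE minus WT (limma adjusted p = 0.000309). The smaller difference of Control minus WT, 0.32, was called (limma adjusted p = 0.0406) but not under 7 of 11 alternatives, in which the adjusted p reached 0.159. Between 94.5 and 497 fragments stood behind each value, by the estimate from low values.

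With *Zeb2* nearly level, the balance between the 2 expressed factors followed *Snai2*. The ratio of *Zeb2* to *Snai2* TPM was 26.3 from the group means of WT, 5.21 in CypD KO, 20.5 in Control and 9.26 in the libraries labelled CypD OE. *Zeb2* made up 96.1% and 96.4% of the summed TPM of the 6 factors in the WT libraries, and 84.1% and 83.4% in the CypD KO libraries. It was 95.7% and 94.9% in Control and 89.9% and 90.4% in CypD OE. The sum itself stayed between 112 and 129 TPM in the 8 libraries.

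**Figure D2:**
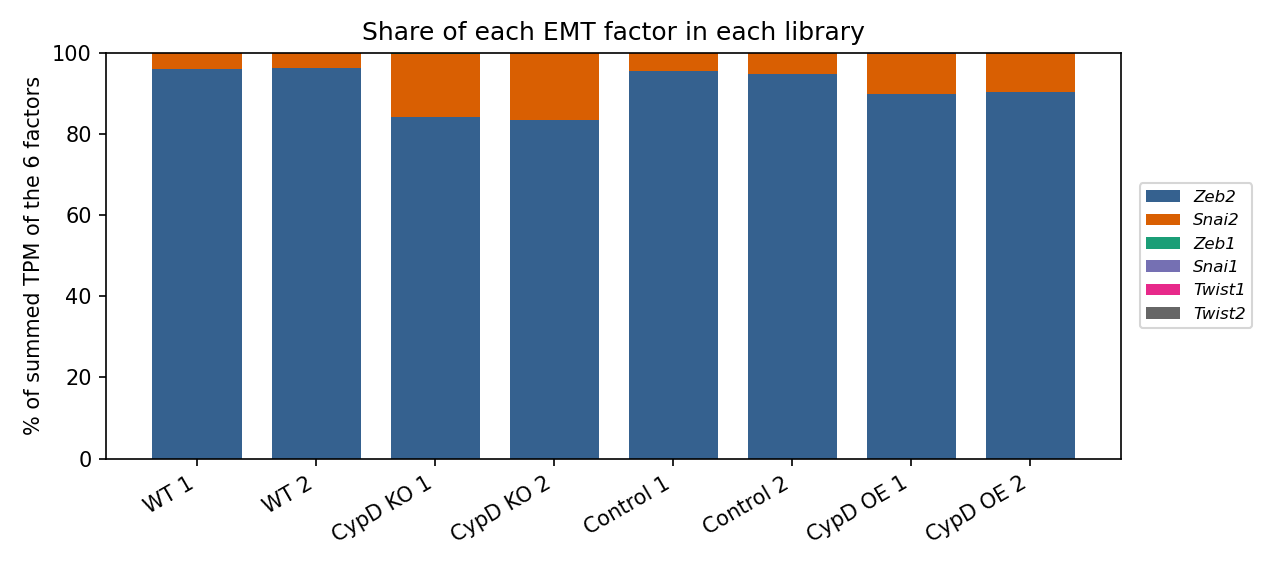
Share of each of the 6 EMT transcription factor genes in their summed TPM (percent, stacked bars), for each library. *Zeb2* takes 83.4% to 96.4% of the sum and *Snai2* nearly all of the rest, with the largest *Snai2* parts in the CypD KO libraries.

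*Zeb1* (ENSMUSG00000024238; chromosome 18, 5591851 to 5775467), the paralogue of *Zeb2*, was at 0.07 and 0.03 TPM in WT, 0.24 and 0.07 TPM in CypD KO, 0 and 0.07 TPM in Control, and 0.03 TPM in both libraries labelled CypD OE. The highest value, in CypD KO replicate 1, corresponded to approximately 15.7 fragments, and the other CypD KO library was level with a WT library. *Snai1* (ENSMUSG00000042821; chromosome 2, 167380113 to 167384734), which encodes SNAIL, was listed at 0 in the second library of WT, CypD KO and Control and at 0.06, 0.06 and 0.07 TPM in the first. In the libraries labelled CypD OE it was at 0.18 and 0.06 TPM, and no library exceeded approximately 3.07 fragments, so the groups could not be told apart at this depth.

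*Twist1* (ENSMUSG00000035799; chromosome 12, 34007645 to 34009828) and *Twist2* (ENSMUSG00000007805; chromosome 1, 91729176 to 91796542) encode basic helix-loop-helix factors that bind E-boxes as dimers. Both were listed at 0 in all 8 libraries. A count of 0 allows up to 3 fragments, or 0.17 to 0.202 TPM for *Twist1* and 0.218 to 0.258 TPM for *Twist2* depending on the library, a limit for counting error only. Genes that every cell uses were well above 0: the lowest library value was 41.7 TPM for *Tbp*, 145 TPM for *Hprt* and 2355 TPM for *Actb*.

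The study listed mouse RT-qPCR primers for *Twist1*, *Snai1* and *Vim*, shown here because they cover transcripts that these libraries hold at 0, near 0 and at high level. Each pair matched the canonical GENCODE transcript exactly, with both *Twist1* primers in exon 1 (amplicon of 134 bases), the *Snai1* primers in exons 2 and 3 (163 bases) and the *Vim* primers in exons 3 and 4 (138 bases). The forward and reverse primers, 5′ to 3′, were:
Twist1 forward: gattcagaccctcaaactggcg
Twist1 reverse: agacggagaaggcgtagctgag
Snai1 forward: tgtctgcacgacctgtggaaag
Snai1 reverse: cttcacatccgagtgggtttgg
Vim forward: cggaaagtggaatccttgcagg
Vim reverse: agcagtgaggtcaggcttggaa

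Promoter sequences from RefSeq (GRCm38.p6), running 250 bases before to 50 after a start, were matched for 5 of the 10 genes: *Zeb2*, *Snai1*, *Twist1*, *Twist2* and *Vim*, with 8 windows in all. *Zeb1*, *Snai2*, *Cdh1*, *Cdh2* and *Cdh3* had no entry. Each window was placed in GRCm39 by a unique exact match. They were searched on both strands for the E-box CACCTG, which SNAI and ZEB proteins bind, and for ACGTG and GCGTG, the core letters of hypoxia response elements. Among 32544 distinct promoters, 20.3% held CACCTG, 19.7% ACGTG and 32.6% GCGTG. The *Snai1* window held CACCTG at -126 from the start and GCGTG at -156, -61 and -42. The *Twist1* window held ACGTG at -98, and 2 overlapping *Zeb2* windows shared 1 GCGTG. The windows of *Vim* and *Twist2* held none of these letters in either strand. The general E-box CANNTG, which includes CACCTG and which 72.3% of promoters held, was found in the *Snai1* window and in none of the other 7, of which 2 overlap. A match is a description of letters and not a site in use. The matches are shown in stretches of 30 bases, read along the gene's strand, with the motif in capitals (CACGC and CACGT are GCGTG and ACGTG read on the other strand):
Snai1 E-box, chr2:167379977-167380006, plus strand: gcagcccaggcgCACCTGctccggtctcag
Snai1 at -156, chr2:167379947-167379976, plus strand: gaatctcagcgcCACGCggcgggagcccca
Snai1 at -61, chr2:167380042-167380071, plus strand: cttgacaaagggGCGTGaccaacagtacgg
Snai1 at -42, chr2:167380061-167380090, plus strand: caacagtacggtCACGCccccagccctggt
Twist1 at -98, chr12:34007560-34007589, plus strand: gtccctcctcccCACGTcaggccaatgaca
Zeb2, chr2:45003314-45003343, minus strand: ggggggggggggGCGTGgagaagggaggga

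Among the cadherins, *Cdh2* (ENSMUSG00000024304; chromosome 18, 16700793 to 16942381, minus strand), which encodes N-cadherin, the calcium-dependent adhesion protein of neural and mesenchymal cells, was abundant. Its TPM was 84.3 and 87.8 in WT and 134 and 133 in CypD KO. At 1% O2 the libraries were at 95.6 and 94.8 TPM in Control and 94.7 and 92.6 TPM in CypD OE. CypD KO stood above the other 3 groups, which lay within 84.3 to 95.6 TPM, and the CypD OE libraries were just below those of Control. The log2 fold change was 0.63 for CypD KO minus WT (standard error 0.04, limma adjusted p = 2.57e-05). For CypD OE minus Control it was -0.02, with a 95% interval of -0.11 to 0.06 (limma adjusted p = 0.668). Smaller differences were called for Control minus WT (0.14, limma adjusted p = 0.0294) and CypD OE minus WT (0.12, limma adjusted p = 0.0463), and were not called under 6 and 8 of 11 alternatives.

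*Cdh1* (ENSMUSG00000000303; chromosome 8, 107329941 to 107396880), which encodes E-cadherin, was already low in WT, at 0.18 and 0.14 TPM. It was at 0.45 and 0.34 TPM in CypD KO, 0.34 and 0.44 TPM in Control, and 0.18 and 0.55 TPM in CypD OE. The group means of CypD KO, Control and CypD OE were above that of WT, and the 2 CypD OE libraries lay far apart. Approximately 6.07 to 28.3 fragments stood behind each value. In the fit without a filter, the log2 fold change of CypD KO minus WT was 0.27 (limma adjusted p = 0.245). *Cdh2* was 168 to 627 times as abundant as *Cdh1* in TPM, depending on the library.

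*Cdh3* (ENSMUSG00000061048; chromosome 8, 107237456 to 107283929) encodes P-cadherin and lies 46011 bases before *Cdh1*. It was at 0.04 and 0.02 TPM in CypD KO and listed at 0 in the other 6 libraries, and the highest value corresponded to approximately 1.98 fragments, under the 3 that a count of 0 allows. In the fit without a filter, none of *Zeb1*, *Snai1*, *Cdh1* and *Cdh3* was called in any of the 4 comparisons.

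*Vim* (ENSMUSG00000026728; chromosome 2, 13578738 to 13587639, plus strand) encodes vimentin, the intermediate filament protein of mesenchymal and neural crest cells. Its level was 1199 and 1163 TPM in WT and 2482 and 2460 TPM in CypD KO. In Control it was 1005 and 1038 TPM, and in the libraries labelled CypD OE 1135 and 1116 TPM. From high to low, the order of the group means was CypD KO, WT, CypD OE, Control. Its rank among all genes by TPM in a library ran from 141 to 36, and it held 0.101% to 0.248% of all TPM. The log2 fold change was 1.06 for CypD KO minus WT (standard error 0.03, limma adjusted p = 1.17e-06). It was 0.14 for CypD OE minus Control (limma adjusted p = 0.00689, and 0.0712 in a fit without the trend in mean expression). In Control it fell by 0.21 relative to WT (limma adjusted p = 0.00247). CypD OE minus WT was -0.07 (95% interval -0.13 to -0.01, limma adjusted p = 0.102), and after median-of-ratios rescaling it was called, at -0.10 (limma adjusted p = 0.0304).

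**Figure D3:**
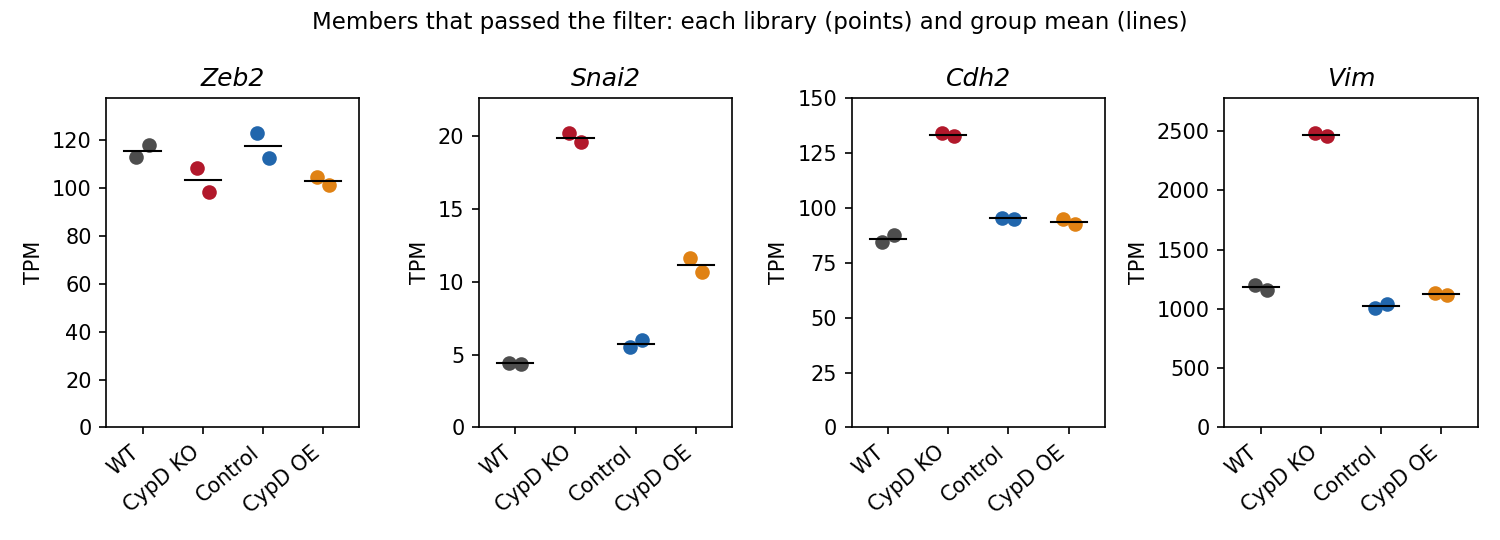
TPM of *Zeb2*, *Snai2*, *Cdh2* and *Vim* by group, with points for the 2 libraries and lines for the group mean; each axis starts at 0. *Snai2*, *Cdh2* and *Vim* are highest in CypD KO, and *Snai2* is next highest in the libraries labelled CypD OE.

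Read side by side, the CypD KO comparison called 3 of the 4 tested genes, all higher, where 30.1% of all genes tested were called higher and 18.4% lower. After median-of-ratios rescaling, 3204 genes were higher and 3481 lower in CypD KO, against 4066 and 2486 with TPM as deposited, and *Snai2*, *Cdh2* and *Vim* were still called higher. In CypD OE against Control, *Snai2* and *Vim* were called higher, where 19.0% of all genes were called higher and 18.3% lower. Control against WT called *Snai2* and *Cdh2* higher and *Vim* lower, where 12.1% of all genes were called higher and 12.1% lower. CypD OE against WT called *Snai2* and *Cdh2* higher, where 14.0% were called higher and 13.7% lower; after the rescaling *Snai2* was called higher and *Vim* lower, and *Cdh2* was not called (limma adjusted p = 0.0827). Comparisons that use the same WT, Control or CypD OE libraries are not independent of each other. The calls of *Snai2*, *Cdh2* and *Vim* in CypD KO, and of *Snai2* in CypD OE against Control and against WT, held under all 11 alternatives. So did the call of *Vim* as lower in Control than in WT.

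**Figure D4:**
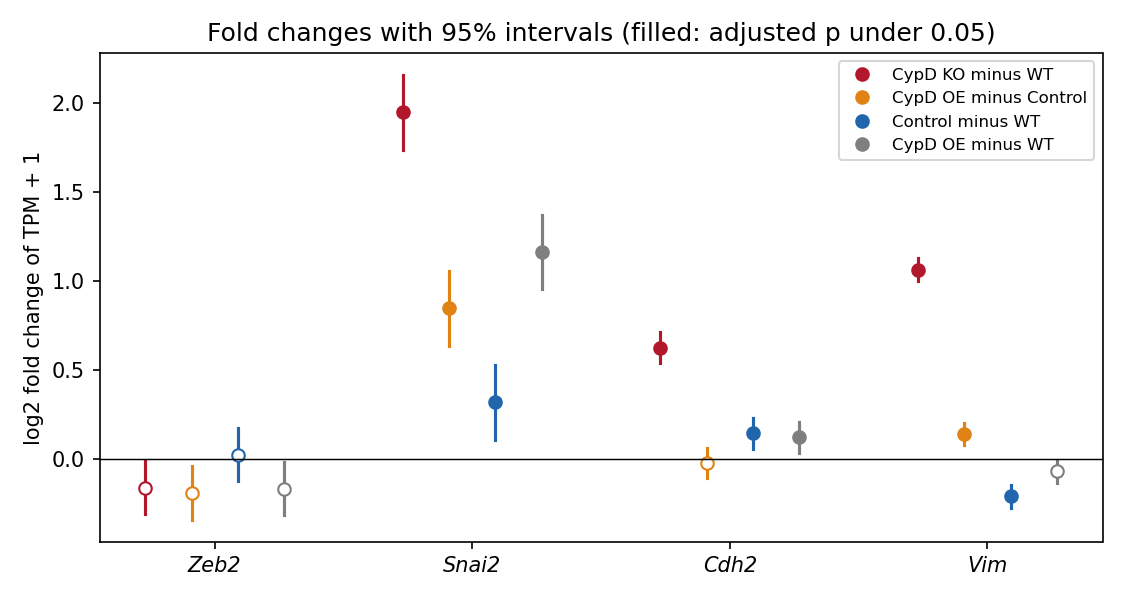
Log2 fold change of TPM + 1 (vertical axis) for the 4 tested genes in the 4 comparisons, with 95% intervals from limma; filled points had an adjusted p under 0.05. *Snai2* is above 0 in all 4 comparisons, and *Cdh2* and *Vim* have their largest values in CypD KO minus WT.

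Summed markers of fibroblasts and macrophages were low but highest in CypD KO, each sum carried mainly by a lone gene. The 9 fibroblast markers summed to 35.4 to 38.3 TPM in CypD KO and 18.1 to 20.3 TPM in WT, 21.4 to 23.0 TPM in Control and 10.4 to 12.8 TPM in CypD OE; *Dcn* and *Dpt* were at 0 in every library, and *Col1a2* and *Col3a1* are also in the mesenchymal list. Of the 3 tested fibroblast markers, *Postn* rose in CypD KO, from 8.04 and 8.07 TPM in WT to 34.8 and 31.2 TPM, and *Col1a2* and *Pdgfrb* fell, by 1.79 and 0.70 on the log2 scale (limma adjusted p = 0.00176 and 0.00794). The 7 macrophage markers summed to 24.2 to 25.3 TPM in CypD KO and 1.15 to 4.90 TPM elsewhere. Both tested macrophage markers were called higher in CypD KO than in WT. Of these, *Lyz2* reached 1 TPM only in the CypD KO libraries and passed the filter through them alone, so its call is no support. *Cd68* was at 21.9 and 23.3 TPM in CypD KO and 3.75 and 3.45 TPM in WT. *Lyz2* was at 1.85 and 1.80 TPM against 0.64 and 0.17 TPM (log2 fold change 1.03, limma adjusted p = 0.0122). *Adgre1* and *Cd14* were at 0 in every library. The 8 keratinocyte markers summed to 0.83 to 5.58 TPM and the 6 endothelial markers to 0.41 to 4.21 TPM, and *Krt5*, *Krt14*, *Trp63* and *Cdh5* were at 0 in every library. In CypD KO minus WT the 1 tested keratinocyte marker, *Sfn*, was higher (0.86) and the 1 tested endothelial marker was not called. Their part in the higher *Snai2*, *Cdh2* and *Vim* was not tested.

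For each tested gene, the 3 other genes with the most similar profile of log2(TPM + 1) over the 8 libraries were found, as a description. *Snai2* was closest to *Tcaf1* (Pearson r 0.998), *Arsb* (0.998) and *F3* (0.997), the last encoding tissue factor, the starter of coagulation; *F3* was at 28.5 and 30.4 TPM in WT and 90.2 and 86.7 TPM in CypD KO. *Cdh2* was closest to *Tpm4* (0.997), a tropomyosin gene of the actin cytoskeleton, *Gm38357* (0.996) and *Wfs1* (0.996). *Vim* was closest to *Sesn2* (0.996), *Msn* (0.996), which encodes moesin, a linker of actin to the membrane, and *Fbxw7* (0.996). For *Zeb2*, whose levels varied least, the highest values were lower, with *Ftl1-ps1* (0.943), *Ormdl2* (0.943) and *Sbno1* (0.939). The 8 libraries hold 4 groups of 2, so such values largely restate the group levels.

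The list counts that follow stand beside the shares over all genes tested. In CypD KO minus WT, 30.1% were called higher and 18.4% lower, and in CypD OE minus Control 19.0% and 18.3%. The counts include genes that reached 1 TPM in the libraries of a single group only. Such genes passed the filter through that group, so a call as higher there is no support. Among 25 further EMT regulators, 9 were tested. Of these, 5 were higher and 3 lower in CypD KO than in WT. Their median log2 fold change was 0.49 against 0.09 over all genes tested. The higher genes included *Runx1* (1.05), a developmental transcription factor. In CypD OE minus Control 3 were higher and 3 lower, among them *Hmga2*, a chromatin architectural factor, at 120 and 118 TPM in CypD OE and 44.2 and 45.5 TPM in Control (log2 fold change 1.39, limma adjusted p = 1.51e-06). *Sox9*, another neural crest factor, fell from 5.36 and 5.49 TPM to 0.80 and 0.96 TPM (-1.77, limma adjusted p = 7.37e-05).

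Of 23 tested cofactors, partners and degraders of the 6 factors, 9 were higher and 6 lower in CypD KO. The share over all genes tested was 30.1% higher and 18.4% lower. After median-of-ratios rescaling, 5 of the list were higher and 8 lower, so the balance of directions rests on the scaling. *Id1*, which encodes an inhibitor of E-box binding helix-loop-helix proteins, rose in CypD KO (1.09) and in CypD OE over Control (1.24). *Id2* fell in the latter (-0.57) and was also lower in CypD KO, at 532 and 526 TPM against 679 and 691 TPM in WT. *Tcf4*, an E-protein gene, rose in both (0.54 and 0.55). *Fbxw7*, a ubiquitin ligase subunit gene, rose in CypD KO (0.46).

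TGF-beta, Notch and SMAD signals act on *Snai2* and *Zeb2* in many cells. Of 18 tested genes of these signals, 13 were higher and 1 lower in CypD KO (median 0.64), and 10 higher and 4 lower after rescaling. The share over all genes tested was 30.1% higher and 18.4% lower in CypD KO minus WT, and 19.0% and 18.3% in CypD OE minus Control. *Tgfb1* rose by 2.12, *Jag1*, a Notch ligand gene, by 1.79 and *Hes1*, a Notch target, by 1.46. In CypD OE minus Control, 10 were higher and 2 lower (median 0.27). *Hes1* was at 17.2 and 15.8 TPM in CypD OE against 2.75 and 2.77 TPM in Control (log2 fold change 2.21, limma adjusted p = 2.74e-05). Its WT level, 8.07 and 6.93 TPM, lay between these. The lower genes included *Notch1* (-0.85), at 0.34 and 0.08 TPM in CypD OE against 0.97 and 1.39 TPM in Control.

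The 2 sides of the EMT marker set were represented unequally. Over all genes tested, 30.1% were called higher and 18.4% lower in CypD KO, and 19.0% and 18.3% in CypD OE minus Control. Of 28 mesenchymal marker genes, 20 were tested; 17 were higher and 1 lower in CypD KO (median 1.61), among them *S100a4*, *Col1a1* and *Fn1*, the fibronectin gene, at 28.4 and 31.1 TPM in WT and 289 and 286 TPM in CypD KO. In CypD OE minus Control, 2 were higher and 8 lower (median -0.13). The lower genes included *Loxl2*, a collagen cross-linking enzyme gene (-4.46), and *Tagln* (-2.36). *Fn1* went the other way, at 64.2 and 62.0 TPM in CypD OE and 42.9 and 45.0 TPM in Control. Of 28 epithelial junction and keratin genes, 5 were tested, of which 2 were higher and 2 lower in CypD KO. *Pkp2*, a desmosome and junction plaque gene, rose from 6.26 and 5.59 TPM to 31.7 and 31.4 TPM (2.23, limma adjusted p = 1.79e-05). The other higher gene, *F11r*, passed the filter only through CypD KO (2.75 and 1.22 TPM), so its call there is no support. Of the 5 tested, *Spint1* alone was called in CypD OE minus Control and was lower (-0.80). It was at 0 and 0.28 TPM in CypD OE against 0.90 and 1.04 TPM in Control, values near or below 1 TPM.

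**Figure D5:**
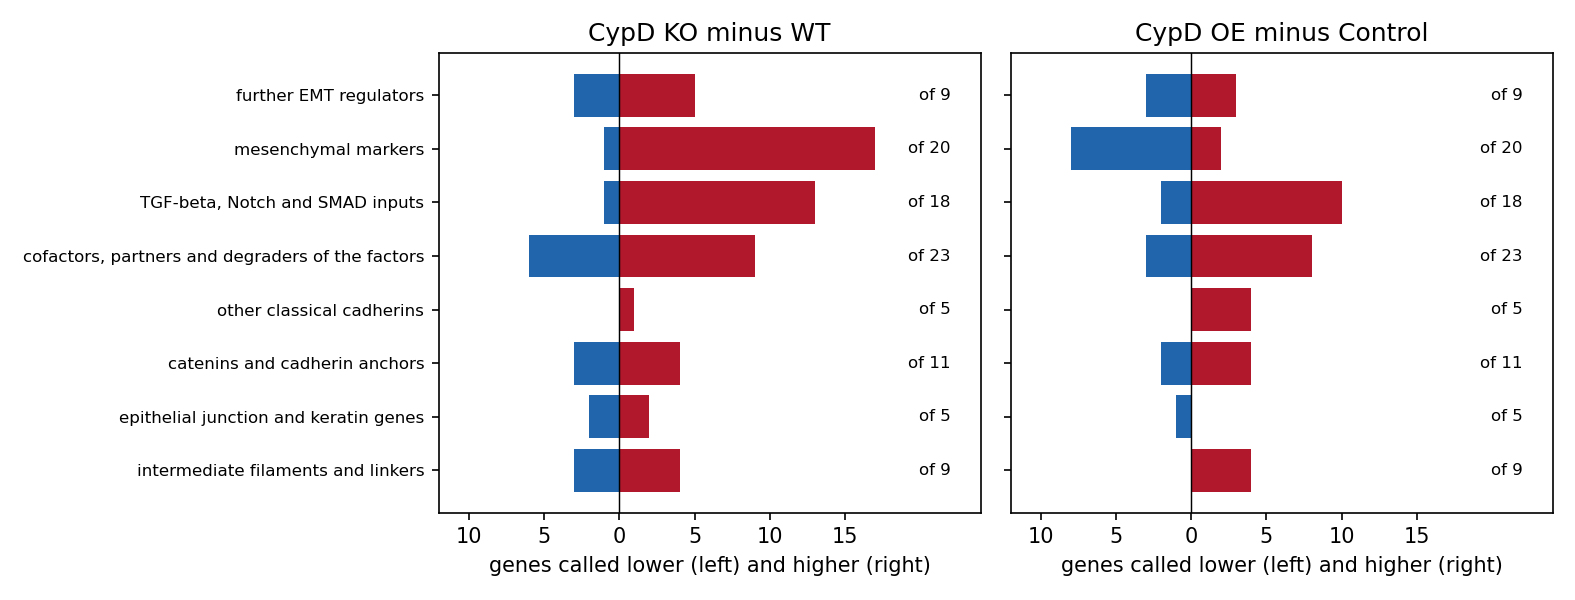
Number of genes called lower (blue, left) and higher (red, right) by limma in 8 gene lists around the EMT factors, cadherins and vimentin, with the number tested at the right of each row. In CypD KO minus WT the mesenchymal markers lean to higher (17 higher, 1 lower), and in CypD OE minus Control to lower (2 higher, 8 lower). Over all genes tested, 30.1% were called higher and 18.4% lower in the first comparison, and 19.0% and 18.3% in the second.

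The counts of the next 3 lists stand beside 30.1% higher and 18.4% lower over all genes tested in CypD KO minus WT. For CypD OE minus Control the shares were 19.0% and 18.3%. Among 18 other cadherin family genes, 5 were tested. *Cdh10* passed the filter only through CypD KO (1.48 and 1.98 TPM) and *Cdh24* only through CypD OE (1.18 and 1.19 TPM). Their calls as higher in those groups are thus no support. In CypD KO *Cdh10* was higher (0.83) and the others were not called, or 1 higher and 1 lower after rescaling, and 4 were higher in CypD OE than in Control, with *Cdh13* at 8.29 and 9.07 TPM against 2.49 and 2.81 TPM (1.41, limma adjusted p = 0.000345) and *Cdh19*, a cadherin of neural crest derivatives, at 61.5 and 57.1 TPM against 39.8 and 39.4 TPM (0.57). Of 11 tested catenins and cadherin anchors, 4 were higher and 3 lower in CypD KO, and 2 higher and 4 lower after rescaling. *Vcl*, the vinculin gene, rose by 1.65 in CypD KO, and *Ctnnd1*, which encodes the p120 catenin that binds cadherin tails, rose in CypD KO (0.77) and fell in CypD OE relative to Control (-0.85). Of 9 tested genes of other intermediate filaments and their linkers, 4 were higher and 3 lower in CypD KO. *Plec*, the plectin gene (1.21), and *Synm* (1.16) rose most, but *Synm* passed the filter only through CypD KO (2.27 and 2.29 TPM). In CypD OE minus Control 4 were higher, with *Nes*, the nestin gene, at 61.6 and 60.4 TPM against 21.0 and 20.9 TPM (limma adjusted p = 7.88e-06).

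HIF target genes are genes that cells raise when the hypoxia factor HIF1 is stable. Of 12 such genes, 11 were higher and 1 lower in CypD KO than in WT (median 1.95). All 12 were higher in Control than in WT, and all 12 were lower in CypD OE than in Control (median -2.11). Over all genes tested, 30.1% were called higher in CypD KO minus WT, 12.1% higher in Control minus WT and 18.3% lower in CypD OE minus Control. In CypD KO minus WT, *Snai2* (log2 fold change 1.95), *Vim* (1.06) and *Cdh2* (0.63) were higher too. For Control minus WT, *Snai2* (0.32) and *Cdh2* (0.14) were higher and *Vim* lower (-0.21). *Snai2* was higher in CypD OE than in Control (0.85), *Vim* was higher by a smaller margin (0.14) and *Cdh2* differed by -0.02. A link between these genes and the HIF targets was not tested.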

How the data were processed

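Total RNA libraries with ribosomal RNA removed were sequenced in paired-end reads of 150 bases. Per the submitters' processing notes, the authors used Cutadapt 3.4 for trimming, STAR 2.7.8a for alignment to GRCm39 and RSEM 1.3.1 for quantification. Their DESeq2 comparisons were not used. Expression was deposited as TPM, set by the authors to the same total in each library, so a rise of abundant transcripts lowers all others. Depth was estimated from steps between low values: 83.3% to 86.3% of them lay within 0.15 of a whole fragment, against 30% if evenly spread.

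All 8 libraries were fitted together as log2(TPM + 1), a mean for each group, with limma 3.58.1 in R 4.3.3 (eBayes with trend, two-sided, Benjamini-Hochberg, threshold 0.05), a procedure tested on simulated data. Member genes and gene lists were chosen with earlier results of these data known. Named genes are the 10 members, *Ppif*, up to 4 called genes of each list with the largest change, and the 3 genes most like each tested member; others are named as markers or genes that every cell uses, and some genes under this rule are not reported here. Positions come from GENCODE M39. Alternatives were a pseudocount of 0.1, filters of 0 and 5 TPM, rescaling by median-of-ratios size factors, fits of 4 libraries, a replicate block, no trend, and leaving out each library; rescaled list counts were added after seeing the data.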

Additional observations from a re-analysis of the deposited data

How the results depend on the processing

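Of 176 refits of the log2 fold changes of the 4 tested genes, 145 kept direction and side of the threshold, 22 lost the call, 7 gained it and 2 changed sign. The sign changes were those of *Zeb2* in Control minus WT, which ranged from -0.0374 to 0.0881 when 1 library was left out (-0.0374 without Control replicate 1 and -0.0059 without WT replicate 1). The number of the 10 genes called fell from 2 to 1 without trend in CypD OE minus Control. It fell from 3 to 1 in a fit of 4 libraries in Control minus WT, and to between 1 and 2 without 1 library, while all genes called fell from 3269 to 1981, and to between 2009 and 2109. In CypD OE minus WT it fell from 2 to 1 without trend, in a fit of 4 libraries and without any 1 library, while all genes called fell from 3744 to between 2295 and 2532 without 1 library. Where a library was left out, the lone library of its group was assumed to vary like those of other groups. The cause of these losses, beyond fewer libraries in the fit, was not tested.

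Labels number only the second library of each group, and the deviations of same-numbered libraries had correlations of 0.108, -0.00175, -0.0186 and -0.00932 in the 4 comparisons, so the numbers were not taken to pair libraries. With a replicate block, the calls were 3 in CypD KO minus WT, 3 in CypD OE minus Control (*Zeb2* added), 1 in Control minus WT and 1 in CypD OE minus WT. With 2 libraries a group and values of few fragments, differences in *Zeb1*, *Snai1*, *Cdh1* and *Cdh3* were not detectable, and *Twist1* and *Twist2* are limited by their floors.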

Other observations

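Among 15 tested melanocyte lineage genes, 3 were higher and 9 lower in CypD KO than in WT (limma, Benjamini-Hochberg). By the same test 12 were higher in Control than in WT, and 1 was higher and 11 lower in CypD OE than in Control. Over all genes tested, 18.4% were called lower in CypD KO minus WT, 12.1% higher in Control minus WT and 18.3% lower in CypD OE minus Control. *Tyr*, the rate-limiting enzyme gene of melanin synthesis, was at 37.4 and 41.3 TPM in WT and 167 and 147 TPM in CypD KO (log2 fold change 1.97, limma adjusted p = 4.02e-06). *Trpm1*, a channel gene of melanocytes, was at 150 and 145 TPM in WT, 44.3 and 38.4 TPM in CypD KO, 374 and 348 TPM in Control and 9.28 and 10.9 TPM in CypD OE. *Kit*, the receptor gene on which melanocyte survival depends, fell from 6.81 and 7.62 TPM in WT to 0.92 and 1.24 TPM in CypD KO (-1.98, limma adjusted p = 4.19e-05).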
